A study of Mus musculus with 8 samples.

Results

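The mouse tongue epithelium was found to hold a minor population of keratinocytes with transcripts of Hoxc13 and Krt24. These cells were collected by a rule on 7 genes: an epithelial cell was a member when at least 4 of Hoxc13, Fxyd4, Trabd2b, Krt24, Foxq1, Npnt and Dlx2 each had 1 or more unique molecular identifiers (UMIs, each standing for 1 captured mRNA molecule). A cell counted as epithelial when it passed the limits on genes, UMIs and mitochondrial reads, had no UMI of the leukocyte gene Ptprc, and had at least 0.5% of its UMIs in Krt5, Krt14, Krt15, Krt13 and Krt6a. Cells with 4 or more of Jakmip2, Notum, Otop2, Otop3, Lhx6, Msx2, Golga7b and Apcdd1, which mark another epithelial population, were left out, and 7 cells that passed both marker sets were lost in this way. The rule gave 360 cells of 12957 epithelial cells and of 42550 cell barcodes in all, and they are called Hoxc13/Krt24 cells here.

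Cells came from whole tongue epithelia of 8 libraries, 2 for each of 4 genotypes, 15 days after induction. Mice of every genotype carried Krt14-CreERT and LSL-rtTA, so that tamoxifen opened a doxycycline-dependent switch in cells with an active Krt14 promoter, which marks the basal layer, and the methods also give an H2B-GFP reporter to all. N mice carried no effector, E mice tetON_E6-E7 (the oncogenes of human papillomavirus 16), Y mice tetON_YAP1S127A (a constitutively active YAP1), and EY mice both. All groups received tamoxifen in the tongue and doxycycline in the diet, and the animals were age- and sex-balanced littermates of 8 to 16 weeks. Viable cells were sorted without removal of leukocytes. Libraries are named by genotype and number (N1, N2 and so on). The methods give 2 animals for each genotype, but N2 is titled with more animal numbers than the rest and may be a pool.

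Hoxc13 is a homeobox factor of hair, nail and the filiform papillae of the tongue, the keratinized spines of its dorsal surface, where it controls genes of hard, hair-type keratins. Papillae and other skin appendages form at sites set by Wnt, bone morphogenetic protein (BMP) and other signals, and their keratinocytes leave a KRT14-positive basal layer to differentiate. Keratins are the intermediate filaments of these cells, and the set of keratins in a cell marks its layer and its type of epithelium.

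For the reader to see what lies in front of a transcript of marker genes, the 250 bases before the RefSeq transcript start (GRCm38.p6) are given for Krt24, for Fxyd4 and for Nrp2, which leads the genes outside the rule. The coordinates are chr11:99285263-99285512 on the minus strand, chr6:117937336-117937585 on the minus strand and chr1:62703067-62703316 on the plus strand, and capitals mark a match to TCNTAAA, a motif of posterior Hox proteins.
Krt24: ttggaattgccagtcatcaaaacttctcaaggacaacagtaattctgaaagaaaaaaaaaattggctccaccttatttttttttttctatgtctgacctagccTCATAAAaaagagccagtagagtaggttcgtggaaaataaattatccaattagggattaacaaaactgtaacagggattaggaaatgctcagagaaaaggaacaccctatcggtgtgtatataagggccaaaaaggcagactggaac
Fxyd4: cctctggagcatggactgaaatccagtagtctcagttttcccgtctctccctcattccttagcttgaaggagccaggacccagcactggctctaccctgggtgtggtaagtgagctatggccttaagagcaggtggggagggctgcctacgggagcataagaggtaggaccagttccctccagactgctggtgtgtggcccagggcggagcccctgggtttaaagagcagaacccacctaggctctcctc
Nrp2: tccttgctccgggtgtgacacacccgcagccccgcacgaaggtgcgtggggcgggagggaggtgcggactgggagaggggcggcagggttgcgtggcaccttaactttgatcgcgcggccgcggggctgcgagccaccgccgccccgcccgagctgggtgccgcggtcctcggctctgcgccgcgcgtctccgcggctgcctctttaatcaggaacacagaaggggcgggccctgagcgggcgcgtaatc
The Krt24 stretch held the motif once, 104 to 110 bases from its 5′ end. On either strand, TCNTAAA was present in 10.5% of 32851 promoters of that length, TAATTA in 4.84% and TATAAA in 12.4%. Of the 7 rule genes and 25 leading genes described below, 21 had a promoter in the reference table, and 2 of those held TCNTAAA in a listed promoter, 2 TATAAA and 0 TAATTA. A match is a description of letters and was not examined for binding. Hoxc13 itself lies at 102921103 to 102928814 of chromosome 15 on the plus strand (GRCm38). In the same gene annotation Fxyd4 spans 117933559 to 117937692 of chromosome 6, and Nrp2 begins at 62703285 of chromosome 1. The Fxyd4 stretch and the last bases of the Nrp2 stretch thus lie inside the annotated genes.

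The population was present at 2.59 to 5.61% of epithelial cells in the N, E and Y libraries, at 1.18% in EY1 and at 0.0987% in EY2. The N libraries gave 110 and 22 members, E gave 105 and 31, Y gave 45 and 43, and EY gave 2 and 2. The share of epithelial cells was 3.19% (95% exact Clopper-Pearson interval 2.63 to 3.83) and 5.30% (3.35 to 7.92) in the N libraries, and 2.59% (2.12 to 3.13) and 5.61% (3.84 to 7.86) in E. It was 3.49% (2.56 to 4.64) and 4.30% (3.13 to 5.74) in Y, and 1.18% (0.143 to 4.19) and 0.0987% (0.0120 to 0.356) in EY. Where values are given by group, library 1 stands first. Intervals cover counting error only. The 6 libraries of N, E and Y averaged 4.08% ± 1.20 (SD, n = 6), the N, E and Y libraries overlapped each other, and both EY shares were below all of them, although the EY1 interval reached up to 4.19% and so took in 3 of the 6 values.

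The depth of the cells moved these shares and was therefore equalized. Members had a median of 10947.5 UMIs in N1 and 24417 in N2, the lowest and highest of the 6 libraries, and a rule on detected genes depends on depth. When every epithelial cell was thinned to 2000 UMIs and 2 of the 7 genes were required, the shares were 4.76 and 5.54% in N, 4.47 and 4.88% in E, 3.42 and 3.70% in Y, and 1.18 and 0.247% in EY. At equal depth the 6 libraries averaged 4.46% ± 0.789 (SD, n = 6) and both EY libraries stayed below them. Both Y libraries were also below both N and both E libraries in this setting, a difference that was not tested. When 4 of 7 genes were required at 4000 UMIs, 0.648 to 0.945% of cells passed in the 6 libraries, against 0 of 135 cells in EY1 and 0 of 1996 in EY2. A limit of 3 counts allows shares of up to 2.22 and 0.150% there, and the 95% exact interval up to 2.70 and 0.185%. Y1 and Y2, at 0.794 and 0.812% with 4000 UMIs, lay within the range of the N and E libraries.

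**Figure D1:**
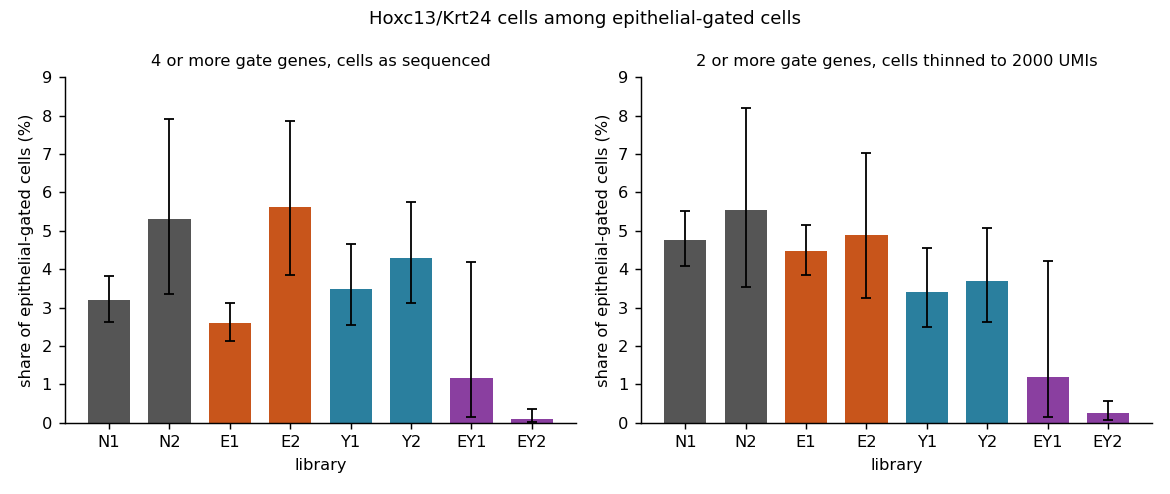
Share of epithelial cells that were Hoxc13/Krt24 cells in each of the 8 libraries (y axis, percent), as sequenced with 4 of 7 genes required (left) and after thinning to 2000 UMIs with 2 required (right); bars show the share and error bars the 95% exact interval. N, E and Y libraries lie between 2.59 and 5.61% as sequenced, EY1 at 1.18% and EY2 at 0.0987%.

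Loss of the cells and loss of the rule's transcripts from cells that remain cannot be told apart in these shares, so the rule genes were also read over all epithelial cells. Krt24 was lowest in EY in this sum: it stood at 134 and 201 CPM (the gene's UMIs scaled to a common total of UMIs) in N, 161 and 138 in E, 63.6 and 51.5 in Y, and 15.9 and 1.65 in EY. Trabd2b and Npnt were likewise lower in both EY libraries than in each of the other 6. Hoxc13 was not, at 9.78 CPM in EY1 (24 UMIs) and 0.189 CPM in EY2 (7 UMIs) against 1.83 to 7.02 CPM elsewhere. In the N, E and Y libraries, members held 20.2% of all epithelial UMIs of Krt24, 36.7% of Trabd2b, 32.5% of Npnt and 68.4% of Hoxc13. For the leading genes this part ran from 9.27% (Krt16) to 42.2% (Nrp2). The sums thus largely hold cells outside the rule and do not settle what happened to members. Over the 7 rule genes and the 25 leading genes, 14 of 32 were below all other libraries in both EY libraries (3 rule genes and 11 leading genes), where 22.5% of all 11682 genes at 1 CPM or more were. UMIs of at least 2 immune marker genes were present in 100% of members of both EY libraries, and in 100% and 81.1% of other epithelial cells of EY1 and EY2; their part in the EY shares was not tested. With 2 members in each library, EY was not tested further.

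The rule genes chose the members, so their values are a description. Foxq1, a forkhead factor of the hair shaft, had a UMI in 88.9% of members, Krt24, a type I keratin, in 86.7%, Trabd2b, a membrane protease that inactivates Wnt ligands, in 73.9%, and Npnt (nephronectin), a basement membrane ligand of integrins, in 73.6%. Hoxc13 was detected in 54.2%, Fxyd4, a regulator of the sodium-potassium pump, in 38.3%, and Dlx2, a homeobox factor, in 37.8%. Of the 360 cells, 219 had 4 of the genes, 95 had 5, 41 had 6 and 5 had all 7.

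Hoxc13 stood at 111 and 32.2 CPM in N, 109 and 117 in E, and 75.2 and 136 in Y, against at most 3.25 CPM in the other epithelial cells of any of these libraries. Krt24 stood at 949, 835, 772, 989, 713 and 688 CPM in the same order, and at 18.1 to 136 in the other cells. Foxq1 stood at 369.6, 398, 464, 341, 507 and 501 CPM, against 21.5 to 58.9. N2, with 22 cells, was the low library for Hoxc13 and did not stand apart for the other 2 genes. Fxyd4 ranged from 40.2 (Y1) to 127 CPM (N2), Trabd2b from 73.2 to 109, Npnt from 77.8 to 142 and Dlx2 from 18.1 to 44.9. Just outside the threshold, 449 epithelial cells of the same 6 libraries had 3 of the 7 genes. Hoxc13, which the rule counts, was at 29.7 CPM in them, 76.5 CPM in members with 4 genes and 141 CPM in those with 5 or more, and Nrp2, which it does not count, was at 77.9, 129 and 379 CPM. Hoxc13 and Fxyd4 were seen together, with Fxyd4 in 49.2% of members that had Hoxc13 and Hoxc13 in 69.6% of members that had Fxyd4, a description that shares the rule and the cells' depth.

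The other epithelial cells used for comparison are the epithelial cells of the same library outside both marker sets. Since members were chosen on expression, the ratios of members to these cells are descriptions with no test. Ratios are log2 of members over other cells within a library after adding 5 CPM to each, and their median over the 6 libraries is given. Of 5529 genes measured, 54 (0.977%) were at least 2-fold higher in members in every library and 17 (0.307%) at least 2-fold lower.

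Nrp2 (neuropilin 2), a co-receptor for class 3 semaphorins and vascular growth factors, ranked first among the genes outside the rule. It stood at 165 and 299.7 CPM in N, 160.4 and 166 in E, and 264 and 432 in Y, against 3.55 to 18.5 CPM in other epithelial cells, with a median log2 ratio of 4.19 (3.62 to 4.50). Plxna2, a plexin receptor that pairs with neuropilins, stood at 388, 392, 294, 369, 317 and 375 CPM against 56.8 to 87.1, a median ratio of 2.18. No member library came near the range of the other cells for either gene. Sema6d, a transmembrane semaphorin, had a median ratio of 2.18, Sema3c, a secreted semaphorin, of 2.06, and Robo2, a receptor for Slit proteins, of 2.04. Ackr3, an atypical chemokine receptor that takes up CXCL12, had a ratio of 2.15.

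Cux1, a homeobox factor, stood at 376, 479, 311, 342, 264 and 409 CPM from N1 to Y2, against 66.0 to 85.3 in other cells, a median log2 ratio of 2.24. Id4, an inhibitor of basic helix-loop-helix factors, had a ratio of 2.10, Maf, a leucine zipper factor, of 1.97, Dlx3, a homeobox factor of hair and epidermis, of 1.92, and Prrx2, a homeobox factor, was at 7.77 to 28.1 CPM against at most 4.14. Of 22 measured genes of a list of appendage transcription factors, 5 were at least 2-fold higher in every library (Cux1, Dlx3, Grhl1, Maf and Pax9) and 1 was lower, Barx2, a homeobox factor, at 43.3 to 64.6 CPM against 222 to 322. The list's median ratio was 0.58, beside 0.03 for all measured genes. No Hox gene of a list of 38 other than the rule's own reached the level needed to be measured.

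Of secreted and signaling proteins, Bambi, a pseudoreceptor that dampens BMP and TGF-beta signals, stood at 85.6, 92.5, 68.2, 94.1, 51.8 and 39.0 CPM against 3.29 to 13.4, a ratio of 2.41. Bmp2 was also at least 2-fold higher in every library, so that 2 of 14 measured genes of the BMP, Hedgehog, Fgf and Eda list were. Of 20 measured Wnt pathway genes 0 were higher and 1 lower by this measure, Sfrp1, a secreted Wnt inhibitor. The median ratio was 0.41 for the Wnt list and 0.57 for the list with Bmp2, beside 0.03 for all measured genes. Igfbp3, a carrier of insulin-like growth factors, stood at 297 to 1069 CPM against 63.5 to 111 and was the 1 gene of 13 measured YAP targets past 2-fold in every library. The median ratio of these 13 was 0.93, beside 0.03 for all measured genes. The remaining leading genes were Fam25c, Gm94, Tubb3 (a beta-tubulin), Cpm (a carboxypeptidase), Ttll7 (a tubulin glutamylase), Slc39a10 (a zinc importer), Kazald1, Fam117b and Rassf9, with Dsg1a, Spink5 and Krt16 described further on.

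**Figure D2:**
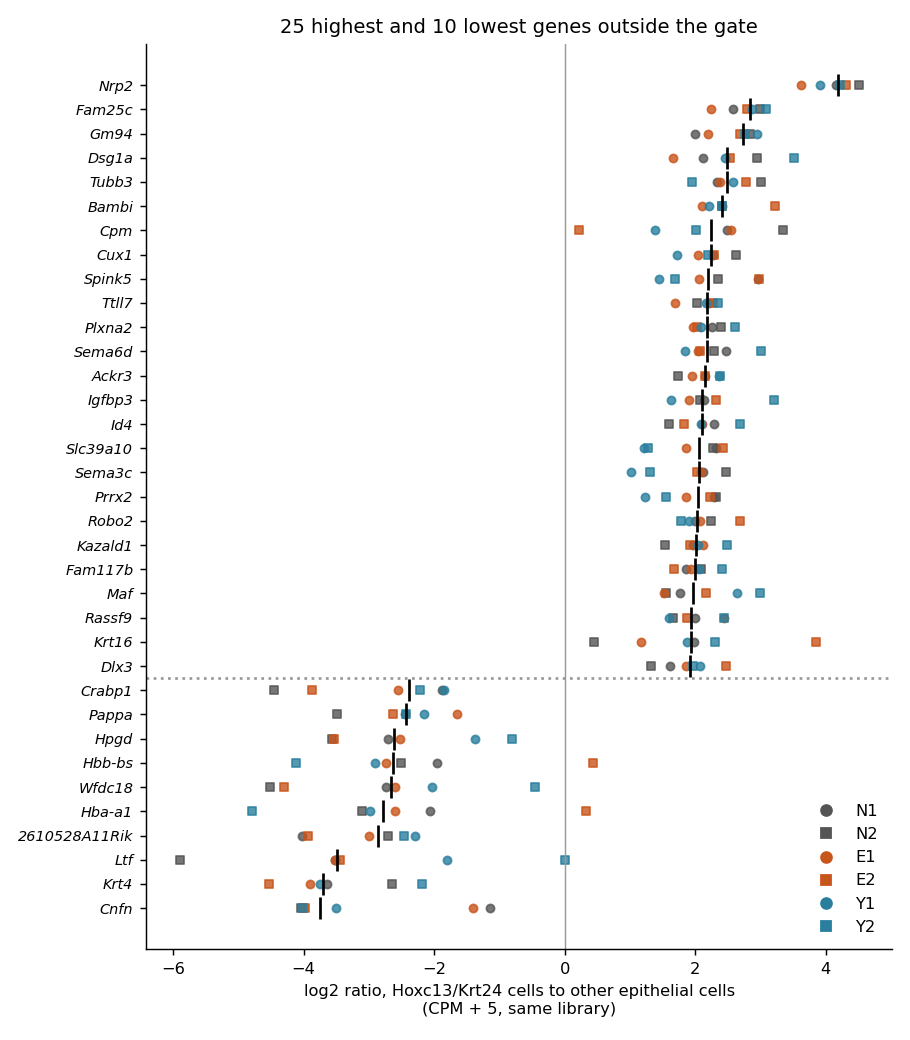
Log2 ratio of Hoxc13/Krt24 cells to the other epithelial cells of the same library, with 5 CPM added to each (x axis), for the 25 highest and 10 lowest genes outside the rule; each point is 1 of 6 libraries and the black tick is their median. Nrp2 ranges from 3.62 to 4.50, and Krt16 spreads from 0.45 in N2 to 3.85 in E2.

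Of 7 measured members of the list of matrix proteins and receptors, 4 were at least 2-fold higher in every library, Col4a5, a collagen IV chain of basement membranes, Lamb1, a laminin chain, and Fras1 and Frem2, which join the epithelium to the matrix beneath it, and the median ratio of the list was 1.64. Frem2 stood at 37.6, 70.4, 46.5, 62.7, 113 and 97.5 CPM from N1 to Y2 against 8.29 to 30.5. Fras1 was at 9.01 to 16.1 CPM in N and E members and at 37.6 and 82.2 CPM in Y1 and Y2. Of 15 basal anchoring genes, all measured, 1 passed 2-fold in every library (Itga2, a collagen-binding integrin chain), and the median ratio was 0.64. Col17a1, a hemidesmosome collagen, stood at 537 to 949 CPM against 328 to 523, and Itga6, its partner integrin chain, at 287 to 445 CPM against 179.5 to 257. Aqp3, a water and glycerol channel, was the 1 of 11 ion and water transport genes past 2-fold.

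Among keratins, Krt14, Krt5, Krt6a and Krt17 stood higher in members, and Krt4, Krt13, Krt15, Krt19 and Krt23 lower. Krt14, the type I keratin of basal cells and a rule gene, was at 17093 to 19508 CPM in members and at 7656 to 10340.0 in other epithelial cells, and Krt5, its partner, at 5068 to 6741 against 3586 to 4488. Krt6a, a wound and appendage keratin and a rule gene, was at 4005 to 5738 CPM against 1584 to 2328. Krt17, a keratin of hair follicles and wounds, was at 3444 to 6864 CPM against 838 to 2566, a median log2 ratio of 1.62. Krt16, another wound and appendage keratin, was variable, at 844, 243, 1067, 1564, 755 and 888 CPM against 104 to 471. Krt4, a mucosal differentiation keratin, stood at 96.1, 86.5, 89.8, 20.9, 75.2 and 464 CPM against 567 to 2122, a ratio of −3.70, and its partner Krt13, a rule gene, was at 117 to 1604 CPM against 1897 to 3838. Krt15 was at 719.9 to 3076 CPM against 3347 to 4847, although it is itself a basal keratin. Krt19 and Krt23 were at 0 to 2.01 CPM in members.

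Further genes at the low end were Cnfn, a cornified envelope protein, with a median ratio of −3.74 (0 to 18.1 CPM in members), 2610528A11Rik (−2.85), Hpgd, which inactivates prostaglandins (−2.61), Pappa, a protease of growth factor carriers (−2.43), and Crabp1, a retinoic acid carrier (−2.38). The gland and blood transcripts Ltf, Wfdc18, Hba-a1 and Hbb-bs completed the 10 lowest and varied by library in the other cells, with Ltf from 0 (Y2) to 413 CPM (N2). Over the 28 immune markers 15 reached 1 CPM in members, and 5 were at 0, among them Cd79a, Siglech, Cpa3 and Mcpt4. Their summed level was 64.6 to 334 CPM in members and 111 to 349.6 CPM in other epithelial cells of the same libraries. Of 20 stromal and vascular markers 11 were at 0, among them Pdgfra, Pdgfrb, Cdh5 and Kdr, with a summed level of 51.8 to 598 CPM against 252 to 882. Of 26 taste, gland, melanocyte, Merkel cell and nerve markers 13 were at 0, among them Trpm5, Atoh1, Mlana and Sox10, with 28.5 to 104 CPM against 50.9 to 1145.

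The hard keratins of filiform papillae were rare in these cells. Krt36 and Krt84, which mark the hard part of filiform papillae, each had a UMI in 1.69% of members (Krt36 in 4.24% of other epithelial cells), and Krt84 was at 0 in N1, N2, E2 and Y2, 1.30 CPM in Y1 and 63.4 CPM in E1. Tchh (trichohyalin) stood at 8.05 to 78.0 CPM in members and at 17.1 to 42.9 in other cells. These genes belong to the hard part only, and of the 22 measured appendage factors above 5 were higher and 1 lower. Whether the cells belong to papillae was not tested, and they are named by Hoxc13 and Krt24 alone.

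**Figure D3:**
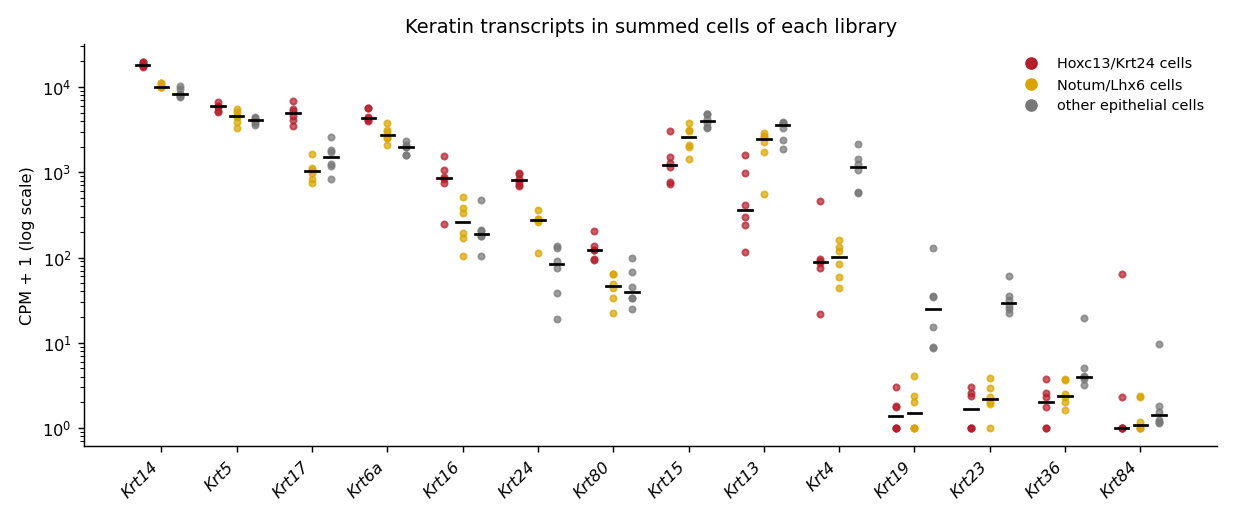
Keratin levels (CPM with 1 added, log axis) in Hoxc13/Krt24 cells, Notum/Lhx6 cells and other epithelial cells; each point is 1 of 6 libraries and the bar is their median. Krt17 reaches 3444 to 6864 CPM in Hoxc13/Krt24 cells, and Krt4 lies at 20.9 to 464 CPM there against 567 to 2122 CPM in other epithelial cells.

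The other population with a marker set of its own, the 906 cells called Notum/Lhx6 cells here, was set beside the members. Against these, in the same 6 libraries, 80 of 5529 genes (1.45%) were at least 2-fold higher in Hoxc13/Krt24 cells in every library and 22 (0.398%) lower, and the values are again a description. Spink5, an inhibitor of skin proteases, had the highest median ratio (4.38) and stood at 632, 247, 274, 396, 444 and 1555 CPM against 9.40 to 50.3 in Notum/Lhx6 cells. It was followed by Plxna2 (3.99), Sostdc1, a BMP and Wnt antagonist (3.98), Tgfbi, a matrix protein (3.33), Igfbp3 (3.24) and Nrp2 (3.16). The Notum/Lhx6 cells had more Lef1, a Wnt effector, at 125 to 229.6 CPM against 5.18 to 13.6, and more Runx2, an osteoblast and appendage factor, at 83.3 to 119 CPM against 1.49 to 6.48. Adh7, an alcohol dehydrogenase that oxidizes retinol, was among the lowest in Hoxc13/Krt24 cells (−3.81). Against Notum/Lhx6 cells, median ratios were −0.27 for Cnfn, −0.10 for Krt4, −0.22 for Hpgd, −0.61 for 2610528A11Rik, −0.82 for Pappa and 0.36 for Crabp1. The low level of these genes against other epithelial cells was thus within 2-fold of that in Notum/Lhx6 cells on the median. Bambi was lower than in Notum/Lhx6 cells in 6 of 6 libraries (−0.55) and Tubb3 in 5 of 6 (−0.41), both by less than 2-fold on the median, Robo2 was higher in 3 of 6 (−0.04), and Msx2, a homeobox gene of the other marker set, stood at 24.1 to 46.3 CPM in Hoxc13/Krt24 cells, between the 1.06 to 3.34 of other epithelial cells and the 44.7 to 68.5 of Notum/Lhx6 cells.

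Members differed among themselves. Dsg1a, a desmosomal cadherin of upper layers, was among the leading genes at 79.6, 78.4, 56.1, 62.7, 53.1 and 109 CPM against 4.89 to 14.5, and 142 of 356 members of the 6 libraries had a UMI of it. This cut was chosen with values known, and the differences below are descriptions. Members with Dsg1a had more Krt16 in 5 of 6 libraries (median log2 ratio 3.14), more Spink5 (1.65), Sbsn (1.65), Lypd3 (1.69) and Tgm1 (1.57), all of differentiating keratinocytes, in 6 of 6, and more Krt24 (0.96) and Nrp2 (579 against 238 CPM in Y2) in 6 of 6. They had less Krt15 (−1.56) and Krt5 (−0.31) in 6 of 6 libraries, and Mki67, a proliferation marker, was lower in 5 of 6 (−1.29). In N1, Krt15 was at 520.2 CPM in the 47 cells with Dsg1a and at 1608 CPM in the 63 without, and Krt16 at 1720.2 and 212 CPM. In E2, Krt16 was at 3516 CPM in 12 cells and 114 CPM in 19. N2, with 10 and 12 cells, was the exception for Krt16, at 194 and 292 CPM. Krt14 differed by 0.10. Other basal genes did not follow Krt15: Itga6 was higher in 3 of 6 libraries, Dst in 3 (−0.18), Col17a1 in 2 (−0.08) and Trp63, the master factor of stratified epithelia, in 1 (−0.09). Median UMIs of cells with and without Dsg1a were 10851 and 11085 in N1 and 25289.5 and 20398 in E2.

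Cell cycle genes were not used by the rule, and their detection was compared after each cell was thinned to 2000 UMIs. A cell counted as cycling when 3 or more of 59 G1/S and G2/M genes were detected. Cycling cells made up 29.1 and 13.6% of members in N (32 of 110 and 3 of 22 cells), 51.4 and 41.9% in E (54 of 105 and 13 of 31), and 24.4 and 18.6% in Y (11 of 45 and 8 of 43). Both E libraries lay above the other 4. The mean was 46.7% with E6-E7 and 21.4% without, a difference of 25.2 percentage points, and the two-sided exact permutation test over libraries gave p = 0.0667, the smallest that 15 labellings allow. Other epithelial cells had higher shares than members in each of the 6 libraries, at 40.0, 31.6, 64.1, 43.2, 35.6 and 54.8% from N1 to Y2, a difference that was not tested. Notum/Lhx6 cells were at 23.1 and 29.3% in N, 66.1 and 35.5% in E, and 20.8 and 27.0% in Y. Both E libraries were thus the highest in that class too, and its shares were below those of other epithelial cells except in E1. Unthinned, 73.6 to 96.8% of members passed the same count.

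**Figure D4:**
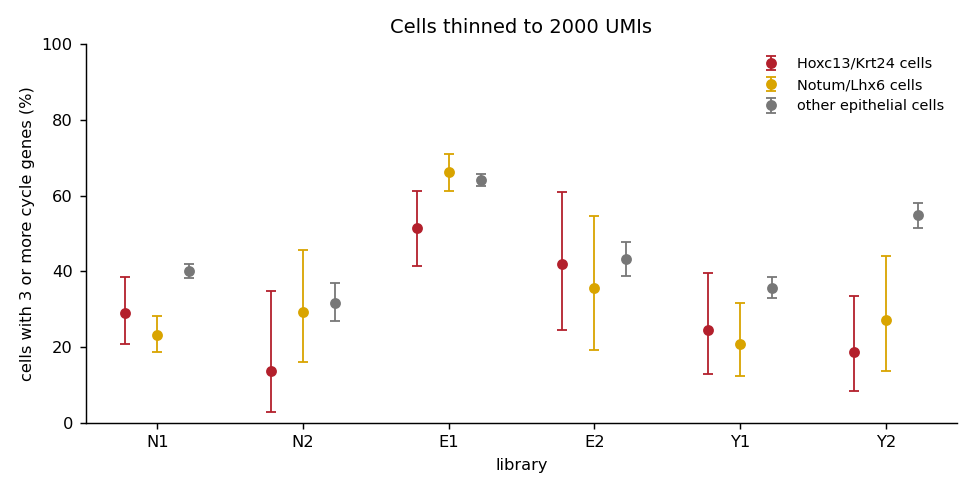
Share of cells with 3 or more of 59 cell cycle genes after thinning to 2000 UMIs (y axis, percent) in 6 libraries and 3 cell classes; points are shares and error bars 95% exact intervals. Hoxc13/Krt24 cells lie at 41.9 and 51.4% in the E libraries and at 13.6 to 29.1% in N and Y.

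The effect of E6-E7 on members was tested by E against N, on UMIs summed over the members of each library (edgeR quasi-likelihood test, Benjamini-Hochberg adjustment over all 7205 genes tested). In all, 11 genes (0.153%) rose and 0 fell, with 416 genes at an unadjusted p under 0.05, and DESeq2 called 14 higher and 1 lower. Of the 11, 5 were members of a list of interferon-stimulated genes. Ifi27l2a, an interferon-induced mitochondrial protein, stood at 337 CPM in N1 and 412 in N2 against 2228 in E1 and 3238 in E2, a log2 fold change of 2.78 ± 0.25 (SE; edgeR adjusted p = 0.00137). Bst2 (tetherin), which holds budding viruses at the membrane, stood at 18.0 and 16.1 CPM against 166 and 200.1, a change of 3.31 ± 0.28 (edgeR adjusted p = 0.00137). The N and E libraries did not overlap for either gene.

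Isg15, a ubiquitin-like antiviral protein, was at 111 and 34.2 CPM in N and 729.8 and 421 in E (2.82 ± 0.41, edgeR adjusted p = 0.0278). Ifi44 (2.82), Apol9b (2.98), Apol9a (2.74), Phf11d (2.65) and Lgals9, a galectin (2.54), also rose. Apol9a and Apol9b are near copies, and reads may be split between them. Of the 25 tested genes of an interferon list, 5 rose, Bst2, Ifi27l2a, Ifi44 and Isg15 among them, and all 25 had a positive change, with a median of 2.32 beside −0.00 for all genes. Mcm4 and Zcwpw1 were called as well. Mcm4, a subunit of the replicative helicase, stood at 18.0 and 14.1 CPM in N and 69.0 and 68.7 in E (1.97 ± 0.30, edgeR adjusted p = 0.0332), and it was the 1 gene called of 23 in the G1/S list, whose 23 changes were all positive (median 1.65). Zcwpw1, a histone reader of meiosis, had 1 UMI in the N members and 58 and 22 UMIs in E1 and E2, a ratio of 76.3 (95% counting interval 13.3 to 3052). Of 30 G2/M genes 0 were called (median 0.38).

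The 7 rule genes chose the members in every library, so their changes in E against N, from −0.61 (Fxyd4) to 0.46 (Hoxc13), are given as a description. Of the 25 leading genes 0 were called, beside the 0.153% of all genes. The 22 tested immediate early genes had no call, and all 22 changes were negative, with a median of −0.57. A test of whether the E6-E7 effect in members differed from that in other epithelial cells (an interaction of cell class and transgene, with library as a block) called 0 of 11460 genes by edgeR and 0 by DESeq2, with 409 at an unadjusted edgeR p under 0.05. The 5 genes of lowest p in it were Cxcl2, a neutrophil attractant (2.82), Krt18, a simple-epithelium keratin (3.19), the nuclear RNAs Malat1 (−0.44) and Neat1 (−0.65), and mt-Nd6 (−1.23), at edgeR adjusted p of 0.433 to 0.547. The interferon list had a median of −0.02 in this interaction. Cxcl2 stood at 54.5 CPM in the members of E1 and 7.47 in those of E2. Leaving out N1, E1, E2, Y1 or Y2 gave 12 to 32 calls in this interaction, and leaving out N2 gave 0 (350 at an unadjusted p under 0.05). With the EY members left out, the fit of both transgenes as additive terms is the same as these pairwise fits.

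The call count rested on a few libraries. Without E1, which leaves E2 as a lone library assumed to vary like the others, 2 genes were called, and without N1, 48. The summed level of immune markers was 64.6 and 103 CPM in N members and 141 and 86.6 CPM in E members. Of the 4 immune markers tested 0 were called and 3 had positive changes (median 1.25), and their part in the E results was not tested.

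The effect of active YAP on members was tested by Y against N in the same way. There were 25 calls (0.347%), 19 genes higher (0.264%) and 6 lower (0.0833%), and 722 genes had an unadjusted p under 0.05. Yap1 stood at 30.0 and 32.2 CPM in N1 and N2 against 239.7 and 459.5 in Y1 and Y2, a log2 change of 3.49 ± 0.38 (edgeR adjusted p = 0.00475). Reads of the transgene may be among them, since the features hold no separate entry for it. The E members were at 31.3 and 59.7 CPM. Plb1, a phospholipase of the epidermis, stood at 30.0 and 28.2 CPM against 216 and 409 (3.40 ± 0.35, edgeR adjusted p = 0.00475). Both genes were higher in Y2 than in Y1. They also rose in the other epithelial cells of the same libraries. Yap1 was at 35.4 and 40.3 CPM in N and 213 and 459 in Y there, and Plb1 at 21.5 and 33.6, then 149 and 372.

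Orm1, an acute phase glycoprotein, had 1 UMI in the N members and was at 44.1 and 51.5 CPM in Y, a ratio of 87.1 (95% counting interval 15.1 to 3489). Ndufa4l2, a mitochondrial protein of the hypoxia response, stood at 51.1 and 48.3 CPM against 198 and 561 (2.91 ± 0.42, edgeR adjusted p = 0.0238). Amotl2, a junction protein and direct YAP target, stood at 24.8 and 16.1 CPM against 88.1 and 199 (2.71 ± 0.40, edgeR adjusted p = 0.0249). It was the 1 called of 15 YAP targets tested, all 15 of which had positive changes, with a median of 0.85 beside 0.00 for all genes. Further genes that rose were Mall, Gsta3 (a glutathione transferase), Flrt2 (a guidance and adhesion protein), Cyp2s1 (a cytochrome P450), Anxa3, 2200002D01Rik, Tmem64, Cxcl16 (a chemokine), Tsc22d3, Rhod, Gadd45b, Efemp1 (a matrix protein), Psat1 (serine synthesis) and Ifi27l2a, the largest of these changes being 3.46 (Mall). Ifi27l2a was at 1096 and 1055 CPM in Y, and was the 1 called of 25 interferon genes, whose median was 0.01.

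Among the genes that fell in Y members were Calm4, Chit1, Ckb, Dkk3 and Pmepa1. Calm4, a calmodulin-like protein of differentiating epidermis, stood at 889 and 1116 CPM in N against 266 and 308 in Y and fell by 1.83 ± 0.22 on the log2 scale (edgeR adjusted p = 0.00908). Chit1, a chitinase, stood at 113 and 86.5 CPM against 15.5 and 13.9, a change of −2.78 ± 0.32 (edgeR adjusted p = 0.00631). Ckb, brain-type creatine kinase, stood at 41.3 and 38.2 CPM against 5.18 and 6.96. These 3 genes had Y levels below both N and both E libraries. All 3 also fell in the other epithelial cells. Calm4 was at 358 and 356 CPM in N and 135 and 88.2 in Y there. Chit1 was at 155 and 118, then 39.2 and 28.5, and Ckb at 6.06 and 6.63, then 1.47 and 1.81. Dkk3, a Dickkopf-family protein, changed by −1.98 and Pmepa1, an inhibitor of TGF-beta signaling, by −1.35. Dkk3 was the 1 called of 28 Wnt pathway genes tested, and the list's median was −0.24.

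**Figure D5:**
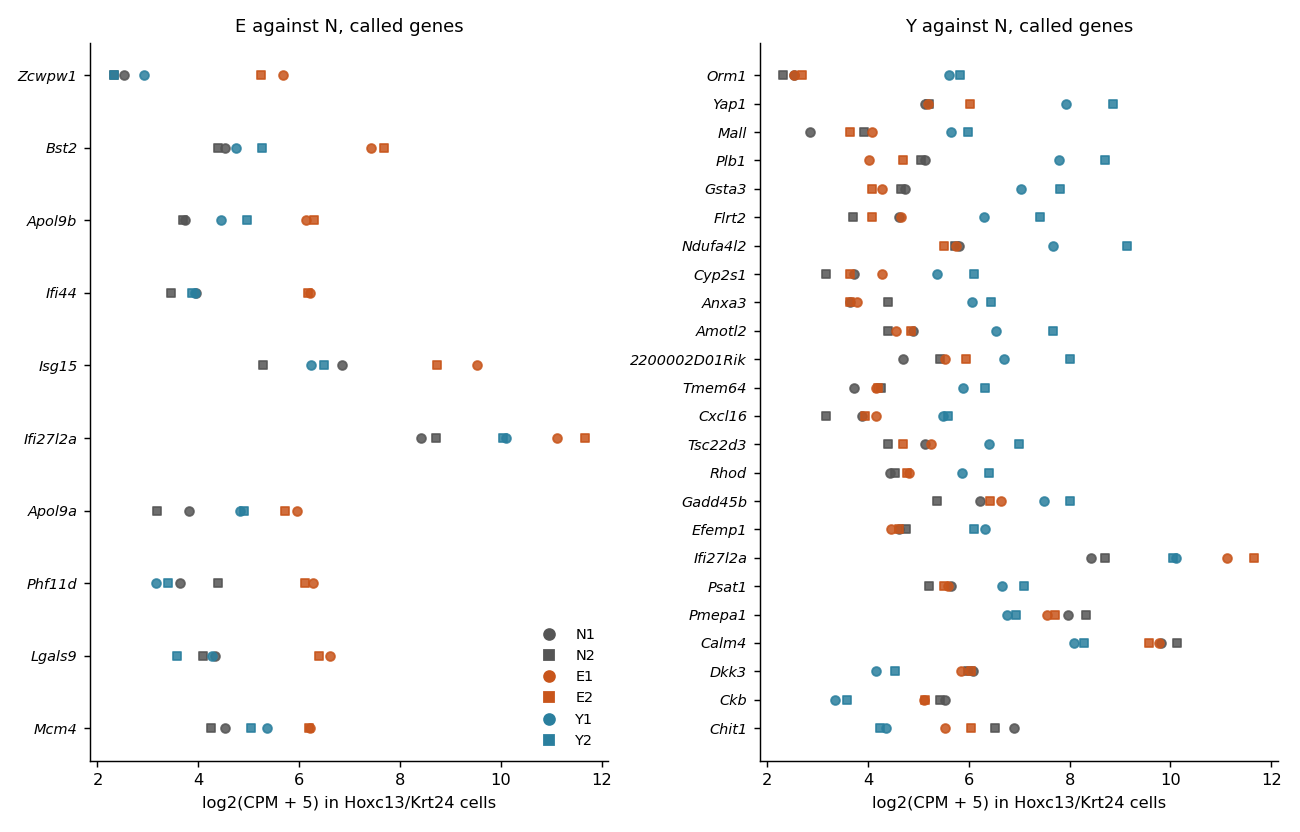
Levels in the Hoxc13/Krt24 cells of 6 libraries, as log2 of CPM with 5 added (x axis), of genes called in E against N (left) and in Y against N (right); each point is 1 library, coloured by genotype. For Bst2 both E libraries (166 and 200.1 CPM) lie to the right of both N libraries (18.0 and 16.1 CPM), and for Calm4 both Y libraries lie to the left of N and E.

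The rule genes changed by −0.60 (Fxyd4) to 0.44 (Hoxc13) in Y against N, again a description. Of the 25 leading genes 0 were called, beside the 0.347% of all genes. Sostdc1 stood at 401 and 465 CPM in N and 106 and 19.5 CPM in Y, a change that missed the threshold (−2.77, edgeR adjusted p = 0.0616). Egln3, a hypoxia-induced oxygen sensor, missed it too (3.98, edgeR adjusted p = 0.0542), and of 21 hypoxia and glycolysis genes 0 were called and 19 were positive (median 0.52). Of 30 G2/M genes 0 were called and 25 were positive (median 0.53). Without Y2, 0 genes were called in Y against N by edgeR, with 507 at an unadjusted p under 0.05, and without N1 or N2 the count was 66 or 55. Y1 members had UMIs of at least 2 immune marker genes in 88.9% of cells, against 93.9% of other epithelial cells of Y1, 10.0% of N1 members and 34.9% of Y2 members, and their summed immune marker level was 334 CPM, against 64.6 and 103 CPM in N and 114 CPM in Y2. The 4 immune markers tested had positive changes with no call (median 2.34), and their part in the Y results was not tested.

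Whether the YAP effect in members differed from that in the other epithelial cells of the same libraries was tested as an interaction. Of 11460 genes, 38 (0.332%) were called, 15 with a higher change in members (0.131%) and 23 with a lower one (0.201%), and 660 had an unadjusted edgeR p under 0.05. No gene named above as called in Y against N was among the 38. The term gives how much the Y-against-N change in members exceeded that in the other cells. Isg15 stood at 111 and 34.2 CPM in N members and 70.0 and 84.9 in Y members, whereas it stood at 62.7 and 48.1 CPM in N and 129.8 and 287 CPM in Y in other cells, a difference of −1.82 ± 0.30 (edgeR adjusted p = 0.00629). Fgfbp1, a carrier that releases fibroblast growth factors, stood at 68.4 and 117 CPM in N members and 117 and 93.3 in Y members, against 99.6 and 99.8, then 283 and 389, in other cells (−1.45 ± 0.27, edgeR adjusted p = 0.0116). For these genes the rise seen in other cells was smaller or missing in members.

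The opposite order held for Snai2 and Mmp2. Snai2, a transcription factor of epithelial-mesenchymal transition, stood at 29.3 and 42.2 CPM in N members and 101 and 66.8 in Y members, and at 47.1 and 53.3, then 62.2 and 34.6, in other cells (1.35 ± 0.28, edgeR adjusted p = 0.0247). Mmp2, a matrix metalloproteinase, stood at 66.1 and 48.3 CPM in N members and 139 and 121 in Y members, against 46.4 and 47.9, then 46.4 and 47.3, in other cells (1.12 ± 0.24, edgeR adjusted p = 0.0385). The other cells hardly moved in Mmp2 and members of both Y libraries lay above both N libraries. Of the leading genes, 4 of 25 were called in this interaction, beside the 0.332% of all genes, but leading genes were picked by the same member-to-other levels. Maf had a higher change in members, and Sema3c, Slc39a10 and Spink5 a lower one. Krt24 (1.70) and Krt13 (1.59) passed the threshold as well, but they belong to the rule and are given as a description: Krt24 was at 37.1 and 18.1 CPM in other cells of Y1 and Y2 and at 91.3 and 136 CPM in those of N. Serpinb3a, Chil4 and Mal were also called but had 0 UMIs in the N members, so no fold is given. When genes had to reach 20 CPM in 2 libraries, edgeR called 0 of 6249 genes, with 414 at an unadjusted p under 0.05. Leaving out N2 gave 11 calls, and leaving out E1, E2 or Y1 gave 93, 95 or 81.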

How the data were processed

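Single viable cells of mouse tongue epithelium were profiled by 3′ droplet sequencing in 8 libraries. The authors deposited unscaled UMI counts per gene and barcode, 1 matrix per library, made with Cell Ranger 5.0.0 on mm10 per the file headers and the submitters' processing notes. The labels and the methods name different kit versions. Libraries held 46483469 to 102427359 UMIs and pairs of libraries shared at most 19 barcodes. The authors' cell limits were applied: 1000 to 5500 genes, at most 30000 UMIs and 7% mitochondrial UMIs. No doublet caller was used. Members and gene lists were chosen with earlier results of these data known.

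Counts were summed over members per library with at least 20 members and tested with edgeR 4.0.16 (filterByExpr, TMM, quasi-likelihood) in R 4.3.3, with DESeq2 1.42.0 as an alternative. Tests were checked on simulated data with a fixed spread for all genes and no differences between libraries of a group. That check does not cover the variation of the libraries used here. SE was derived from the log2 change and the F statistic of its test. Calls have a Benjamini-Hochberg adjusted p under 0.05. Named genes were the rule genes, the 25 highest (at least 20 CPM, detected in 10% of members) and 10 lowest (at least 50 CPM in other cells) member-to-other ratios, up to 8 called genes per direction and contrast with at least 20 CPM and no overlap between libraries (with fewer than 3 calls, the 5 of lowest p), and the highest or called genes of each list. Further called genes, Sostdc1, Egln3, Tchh, the genes compared with Notum/Lhx6 cells and the Dsg1a cut were chosen after values were seen. Some list genes outside the features were not analysed here, and a few genes are not reported here. Python 3.11.15, NumPy 2.4.6, SciPy 1.17.1, pandas 2.3.3 and matplotlib 3.10.9 were used.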

Additional observations from a re-analysis of the deposited data

Results flagged for a closer look

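A test of the difference itself set apart 38 genes whose response to active YAP was not the same in Hoxc13/Krt24 cells as in the other epithelial cells of the same libraries (edgeR quasi-likelihood interaction, Benjamini-Hochberg adjusted). The values below are differences of log2 changes, members minus other cells. Given are the 8 highest and 8 lowest among called genes outside the rule that averaged 20 CPM or more in 1 group and whose member-to-other ratios did not overlap between N and Y libraries. Larger values were fitted for genes left out by these limits, such as Serpinb3a, Chil4 and Mal, with 0 UMIs in the N members. On the higher side, Ces1h was at 1.90, Hpgd at 1.90, Snai2 at 1.35, Maf at 1.19, Mmp2 at 1.12, Pir at 1.06, Them5 at 0.93 and Id3 at 0.92. For Hpgd, which inactivates prostaglandins, members went from 60.8 and 14.1 CPM in N to 115 and 113 in Y, and other cells from 426 and 220.3 to 307 and 200.1. Id3, an inhibitor of basic helix-loop-helix factors, was at 1159 and 322 CPM in N members and 806 and 724 in Y members, and at 575 and 234, then 245 and 225, in other cells.

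On the lower side, Ly6c1 was at −1.42, Fst (follistatin, an activin antagonist) at −1.42, Fgfbp1 at −1.45, Tinagl1 at −1.48, Isg15 at −1.82, Proser2 at −1.94, Rnf39 at −2.25 and Mt3 (a metallothionein) at −2.55. Tinagl1, a matrix protein, was at 56.3 and 54.3 CPM in N members and 90.7 and 146 in Y members, and at 13.5 and 19.2, then 63.9 and 120.0, in other cells. Mt3 was at 33.8 and 127 CPM in N members and 14.3 and 13.9 in Y members, against 49.9 and 79.8, then 62.5 and 96.8, in other cells.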

How the results depend on the processing

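Depth limits these results: N2 and E2 had 22 and 31 members, no group had more than 2 libraries, and a missed call does not show a lack of change. No paired analysis was made, because the labels give animal numbers but no pairing of libraries between genotypes. Libraries were numbered in accession order.

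The mean share in N, E and Y was 0.802% after thinning to 4000 UMIs, 8.24% with 3 rule genes and 1.77% with 5, and the mean EY share was 2.60% with 3. With 3 rule genes, calls were 26 in E against N, 65 in Y against N and 24 in the YAP interaction; without upper limits on genes and UMIs they were 40, 126 and 258, with 9 in the E6-E7 interaction; without a low-count filter they were 152, 314 and 94, with 22. The YAP interaction had 17 calls by DESeq2 and 0 with a floor of 20 CPM in 2 libraries. Leaving out 1 library gave 2 to 48 calls in E against N, 0 to 66 in Y against N, 0 to 32 in the E6-E7 interaction, 11 to 95 in the YAP interaction, a cycling difference of 20.5 to 30.0 points and 22 to 24 of the leading genes. The E6-E7 interaction had 31 calls without N1, 32 without E1, 12 without E2, 17 without Y1 and 16 without Y2. The YAP interaction had 11 without N2, 93 without E1, 95 without E2 and 81 without Y1. Without N1 the median over all genes moved to 0.12 in the E6-E7 interaction and 0.11 in the YAP interaction. The cause of these changes was not tested. Of 602 single-gene values under an alternative, 475 kept their side of the threshold, 110 lost a call, 17 gained one and 0 reversed. Called genes had been named for a lack of overlap between libraries, so a reversal was unlikely from the start. A minimum of 10 cells per library kept the same libraries, so its values could not differ. By contrast, calls were lost in 14 of 112 values in E against N, 31 of 196 in Y against N and 65 of 224 in the YAP interaction. Requiring 5 rule genes or dropping members with 2 or more immune genes left too few libraries for the contrasts and was not run.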
